A study of Mus musculus with 12 samples.

Results

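Genes of glycolysis and of the response to low oxygen were described in bone marrow cultures of female C57BL/6 mice aged 6 weeks. Whole marrow was kept in primary culture for 1 week with 1 nM 17β-estradiol (17βE, the main circulating estrogen) or without it, and RNA was then taken from a c-kit+ fraction, labelled as stem cells, and a CD44+ fraction, labelled as stromal cells. The design had 4 groups, each fraction with and without 17βE, with 3 Affymetrix arrays a group, 12 in all, and expression values on the log2 scale. No allele or agent other than 17βE is named, and the labels do not say how the cells were separated, nor whether replicates came from separate cultures or animals, so p-values measure the spread between these arrays alone. A list of 37 genes was followed, and 34 of them had a probe set that the platform's annotation assigned to them alone, among 18193 genes measured in this way. Each gene was read from its brightest probe set over the 12 arrays. Of the remaining 3, Gapdh was named alone only by control probe sets, its others being shared with pseudogenes, and no probe set carried the name Gpi1 or Eno1.

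Glycolysis splits glucose into pyruvate: transporters of the Slc2a family bring glucose in, hexokinases trap it by phosphorylation, phosphofructokinase commits it to the pathway, and lactate dehydrogenase and the lactate exporter Slc16a3 handle the end product. When oxygen is low, prolyl hydroxylases of the Egln family stop marking the HIF α subunits (Hif1a and Epas1) for destruction. HIF then pairs with Arnt, binds a short DNA element and raises transcription of most glycolytic genes and of targets such as Vegfa, Adm, Bnip3 and Ankrd37. Bone marrow is a tissue of low oxygen, and blood stem cells and activated macrophages are both known for a high use of glycolysis. HIF α subunits are controlled mainly at the level of the protein, which arrays do not measure.

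The labels of the fractions were set against marker genes. Kit, the gene of the c-kit receptor, lay between 3.79 and 4.22 on all 12 arrays, in the range of Y-linked genes, which female mice lack: 5 of the 6 measured had means from 3.22 to 4.30 (Sry had 6.22). Cd44 lay between 11.76 and 12.46 in both fractions. Of 10 macrophage markers, all but Cd163 lay above the highest Y-linked gene, with a mean over the 10 of 11.5 to 11.99 and the macrophage receptor gene Csf1r at 13.86 to 14.11. Marker means of the c-kit+ fraction were lower than those of the CD44+ fraction for mesenchymal genes (5.27 to 6.04 against 6.69 to 7.88 over 10 genes) and for stem and progenitor genes (5.44 to 5.74 against 6.00 to 6.34 over 7). Mast, erythroid and lymphoid markers all had means under the highest Y-linked gene. The fractions are named here as the labels name them, although Kit was not above the Y-linked level in the c-kit+ arrays. In such bulk samples fewer cells of a type and less RNA per cell cannot be told apart. RNA quality differed with the fraction: the 3' control probe set of Gapdh exceeded the 5' one by 4.23 to 6.17 in c-kit+ arrays and by 2.83 to 4.31 in CD44+ arrays. Replicate 3 of the c-kit+ control stood apart from the rest, with a mean correlation of 0.9879 to the other arrays of its group, where the other 11 arrays had 0.9917 to 0.9966.

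The DNA element of HIF has the core ACGTG or GCGTG. Promoters of Slc2a1, Bnip3 and Adm, a transporter and a pair of hypoxia targets whose array values are given in full, are shown as examples of how these cores lie before the start; each has a single RefSeq entry. Each sequence is the 250 bases before the start on GRCm38.p6, 5′ to 3′ on the gene's strand, with cores on either strand in capitals (CACGT and CACGC are the reverse forms, and an overlapping CACGTG counts as 1 match).
Slc2a1, chr4:119108495-119108744, + strand: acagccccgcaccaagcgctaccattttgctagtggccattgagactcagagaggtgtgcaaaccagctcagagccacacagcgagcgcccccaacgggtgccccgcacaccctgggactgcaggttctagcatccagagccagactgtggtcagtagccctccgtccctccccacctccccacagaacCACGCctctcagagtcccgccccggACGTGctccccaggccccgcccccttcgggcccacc
Bnip3, chr7:138909507-138909756, - strand: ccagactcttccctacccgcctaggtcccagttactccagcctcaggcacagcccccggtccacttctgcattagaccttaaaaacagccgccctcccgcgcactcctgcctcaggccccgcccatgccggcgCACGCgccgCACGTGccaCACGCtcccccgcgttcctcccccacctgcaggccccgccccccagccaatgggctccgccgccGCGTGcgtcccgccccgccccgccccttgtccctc
Adm, chr7:110627407-110627656, + strand: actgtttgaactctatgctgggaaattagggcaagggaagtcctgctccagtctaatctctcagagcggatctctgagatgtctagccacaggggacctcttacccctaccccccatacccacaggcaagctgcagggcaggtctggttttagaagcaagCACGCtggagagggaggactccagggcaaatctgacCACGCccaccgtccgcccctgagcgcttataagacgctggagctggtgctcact
Bnip3 held 4 matches in its window, and Slc2a1 and Adm 2 each. RefSeq promoter entries were found for 31 of the 34 members, and 29 of these genes held at least 1 match. Of the members' 43 promoter windows 35 (81.4%) held a match, against 38.6% of all 32851 windows of this length. Many members were put on the list as known HIF targets, and a match is a description of the letters, not of binding.

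The spread of the members over the arrays was close to that of other genes of like level. The values of 25 of the 34 genes (73.5%) spanned less than 1 on the log2 scale over all 12 arrays, against 84.3% of all genes and 74.1% of the genes at or above the median level, where 31 of the members lie. Their median standard deviation within groups was 0.18, against 0.16 for all genes. Adm, which encodes the vasodilator peptide adrenomedullin, had the widest range (3.42), followed by Pfkfb3 (2.1) and Vegfa (1.62). Pfkfb4 (0.22) and Arnt (0.3) had the narrowest. Eno2, Slc16a3 and Ankrd37 had all 4 group means under the highest Y-linked gene and are near background.

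**Figure D1:**
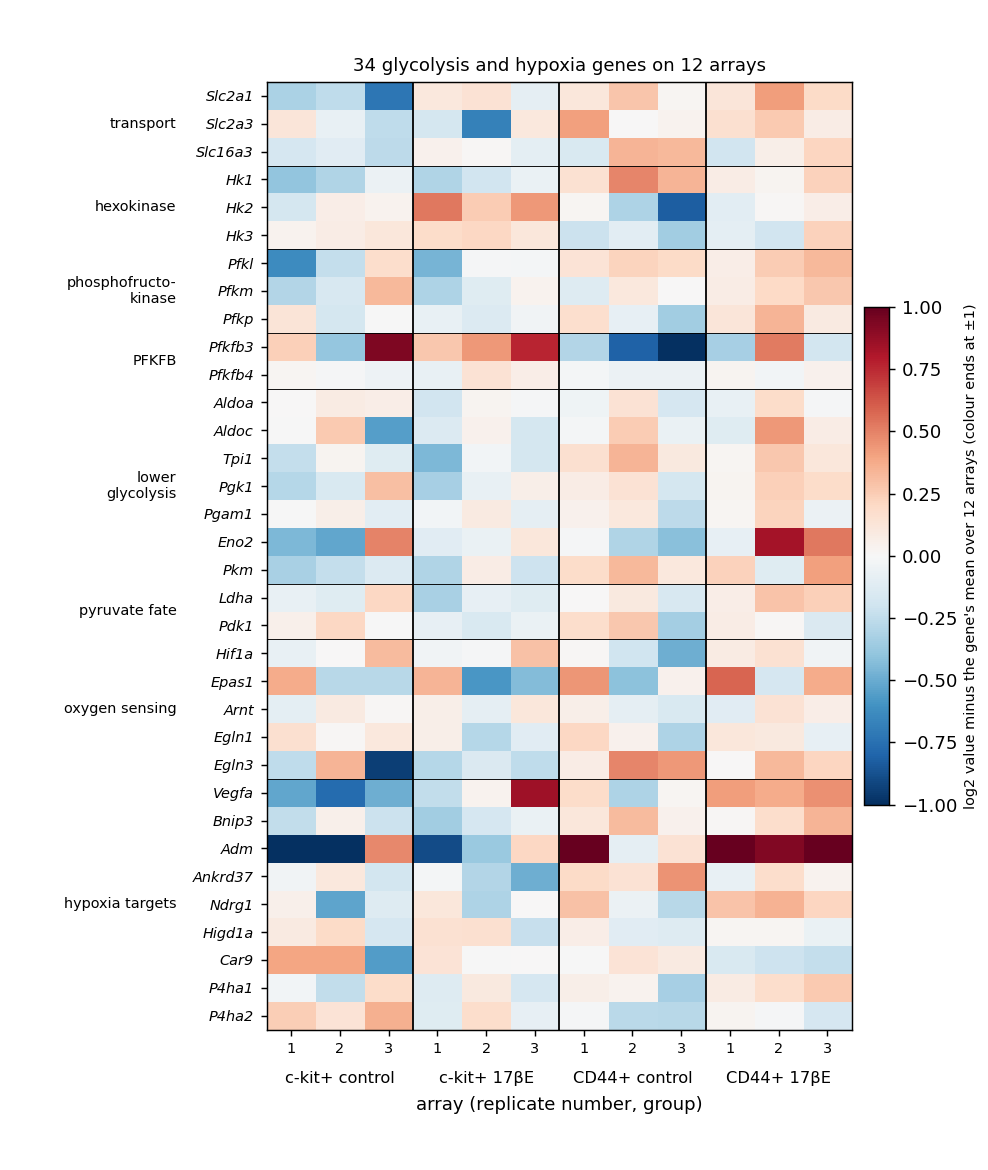
Heat map of the 34 members (rows, by role) on the 12 arrays (columns, by group and replicate number), coloured by the log2 value minus the gene's mean over all arrays. Adm has the widest range (3.42), low on c-kit+ control replicates 1 and 2 and on c-kit+ 17βE replicate 1, and high on CD44+ control replicate 1 and the 3 CD44+ 17βE arrays.

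With 17βE, no member passed the test in the c-kit+ fraction (limma, threshold 0.05 on the adjusted p), where 0.181% of all 18193 genes did (0.176% higher and 0.0055% lower). The median difference over the members was 0.00 on the log2 scale, with 17 above 0 and 17 below, beside a median of 0.016 over all genes. At an unadjusted p under 0.05 stood Vegfa (0.81), Slc2a1 (0.48) and Hk2 (0.43), all higher with 17βE, and P4ha2, which was lower (-0.26). That is 4 of 34 members, or 11.8%, against 4.47% of all genes (3.07% higher and 1.41% lower). All genes include many that are dimmer than most members. Unadjusted shares among genes of the members' level were not computed, here or in the comparisons below. In 5 members all 3 17βE arrays lay above all 3 control arrays (Vegfa, Slc2a1, Hk2, Hk3 and Slc16a3), a pattern seen in 5.34% of all genes, and in Pdk1 they lay below, as in 2.47% of all genes. For 32 of the 34 members the 95% interval of the difference lay within a change of 2-fold in either direction, and for 27 within 1.5-fold. The exceptions at 2-fold were Vegfa (0.32 to 1.29) and Adm (-0.40 to 1.90).

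In the CD44+ fraction, too, no member passed with 17βE by limma, where 0.291% of all genes did, 0.28% higher and 0.011% lower (53 genes, or 101 with the replicate number as a block, which pairs these arrays and gave no member either). The median was 0.10, with 26 members above 0 and 8 below, beside 0.01 over all genes. Among genes at or above the median level, where 31 members lie, it was 0.097 for the members and 0.072 for all. After quantile normalization of the arrays the median over the members was -0.042, beside -0.024 over all genes. Pfkfb3 (0.76) and Eno2 (0.67) had an unadjusted p under 0.05, both higher with 17βE, which is 5.88% of the members against 5.38% of all genes (3.69% higher and 1.69% lower). The 17βE arrays lay entirely above the control arrays for Vegfa and P4ha1 (6.75% of all genes) and below for Car9 (5.92%). For 31 members the 95% interval lay within 2-fold, and for 24 within 1.5-fold. With array weights 5 members passed (Hk1, Eno2, Pfkfb3, Vegfa and Adm), as did 1405 genes in all.

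**Figure D2:**
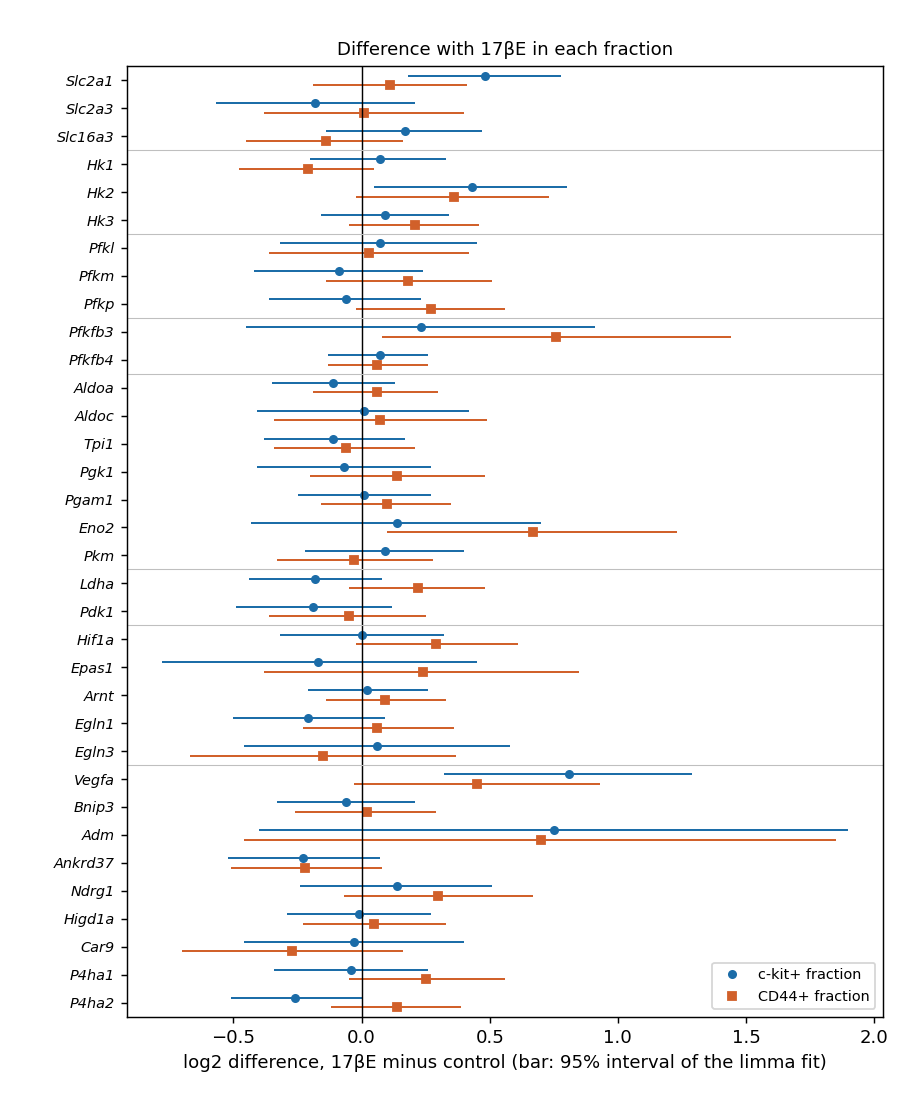
Log2 difference between 17βE and control cultures for each member (points, with 95% intervals of the limma fit as bars) in the c-kit+ fraction (blue circles) and the CD44+ fraction (orange squares). Most points lie near 0, and Vegfa in c-kit+ cells (0.81), Pfkfb3 in CD44+ cells (0.76) and Adm in both (0.75 and 0.70, with the widest intervals) lie farthest to the right.

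The difference of both 17βE effects, c-kit+ minus CD44+, was tested as a contrast of its own, and no gene passed by limma, so percent called was 0.0% for members and for all genes. P4ha2 (-0.39, 95% interval -0.75 to -0.03) and Ldha (-0.40, -0.77 to -0.03) had an unadjusted p under 0.05, which is 5.88% of the members against 1.63% of all genes (1.06% higher and 0.566% lower). The median was -0.08, beside 0.007 over all genes, and 0.028 after quantile normalization. Among genes at or above the median level it was -0.088 for the members and -0.06 for all. For 29 members the 95% interval lay within 2-fold and for 11 within 1.5-fold, so for most members the interval reached past a 1.5-fold difference between the fractions' effects.

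Between the fractions in control cultures 1 of the 34 members passed: Hk1 was lower in c-kit+ than in CD44+ cells (log2 -0.58, SE 0.12, 1.49-fold, 3 arrays against 3, adjusted p = 0.0259). Over all genes 2.3% passed, 0.539% as higher and 1.76% as lower. The median over the members was -0.02, with 17 on either side of 0, beside 0.005 over all genes. Among genes at or above the median level it was 0.002 for the members and 0.086 for all. At an unadjusted p under 0.05 stood 14 members, 3 higher and 11 lower in c-kit+ cells, which is 41.2% of the members, against 13.6% of all genes (7.44% higher and 6.12% lower). The share among genes of the members' level was not computed. Tested alone, the 9097 genes at or above the median level gave 279 calls, against 418 over all 18193 genes. Groups did not overlap for 2 higher members (Hk3 and P4ha2, as in 7.41% of all genes) and 6 lower ones (Hk1, Tpi1, Pkm, Slc2a1, Vegfa and Ankrd37, as in 8.33%). The Hk1 call was lost without c-kit+ control replicate 1 (adjusted p = 0.117) or 2 (0.073), without CD44+ control replicate 2 (0.106) or 3 (0.102), and with the 6 control arrays alone (0.144). With the 3'-to-5' difference of Gapdh as a covariate, chosen once the data had been seen, its value was -0.42 (adjusted p = 0.322). That measure ran from 4.62 to 5.35 on the c-kit+ and from 2.83 to 4.14 on the CD44+ control arrays. RNA quality and fraction thus cannot be told apart there. Mesenchymal markers also moved with this comparison (6 of 10 lower in c-kit+ cells), and their part in it was not tested.

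In 17βE cultures no member passed between the fractions by limma, where 2.65% of all genes did (0.324% higher and 2.33% lower). Adm passed on the arrays of the comparison alone and with c-kit+ control array 3 left out of the shared fit. A member also passed with array weights. The members lay lower in c-kit+ cells, with a median of -0.23 and 26 of 34 below 0, beside 0.026 over all genes, and the median stayed between -0.29 and -0.196 when any of the 6 arrays was left out. At an unadjusted p under 0.05 stood 9 members (26.5%, against 9.77% of all genes, 4.21% higher and 5.56% lower), 8 of them lower. The share among genes of the members' level was not computed here either. Groups did not overlap for 10 lower members (8.15% of all genes) and 2 higher ones, Hk2 and Car9 (10.0%). The lower ones were Hk1, Pfkl, Pfkm, Pfkp, Tpi1, Ldha, Egln3, Bnip3, Adm and Ndrg1. On the glycolysis side 16 of 20 members were below 0 (median -0.24), and on the hypoxia side 10 of 14 (median -0.22). With each gene's probe sets averaged the median was -0.131, and with the Gapdh covariate -0.165. RNA quality and mesenchymal markers (7 of 10 lower in c-kit+ cells) moved with this comparison too. The part of mesenchymal cells in it was not tested. The Gapdh covariate follows the fraction closely and cannot separate RNA quality from it. Both comparisons of the fractions share arrays with those of 17βE, so their values are not independent of each other.

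**Figure D3:**
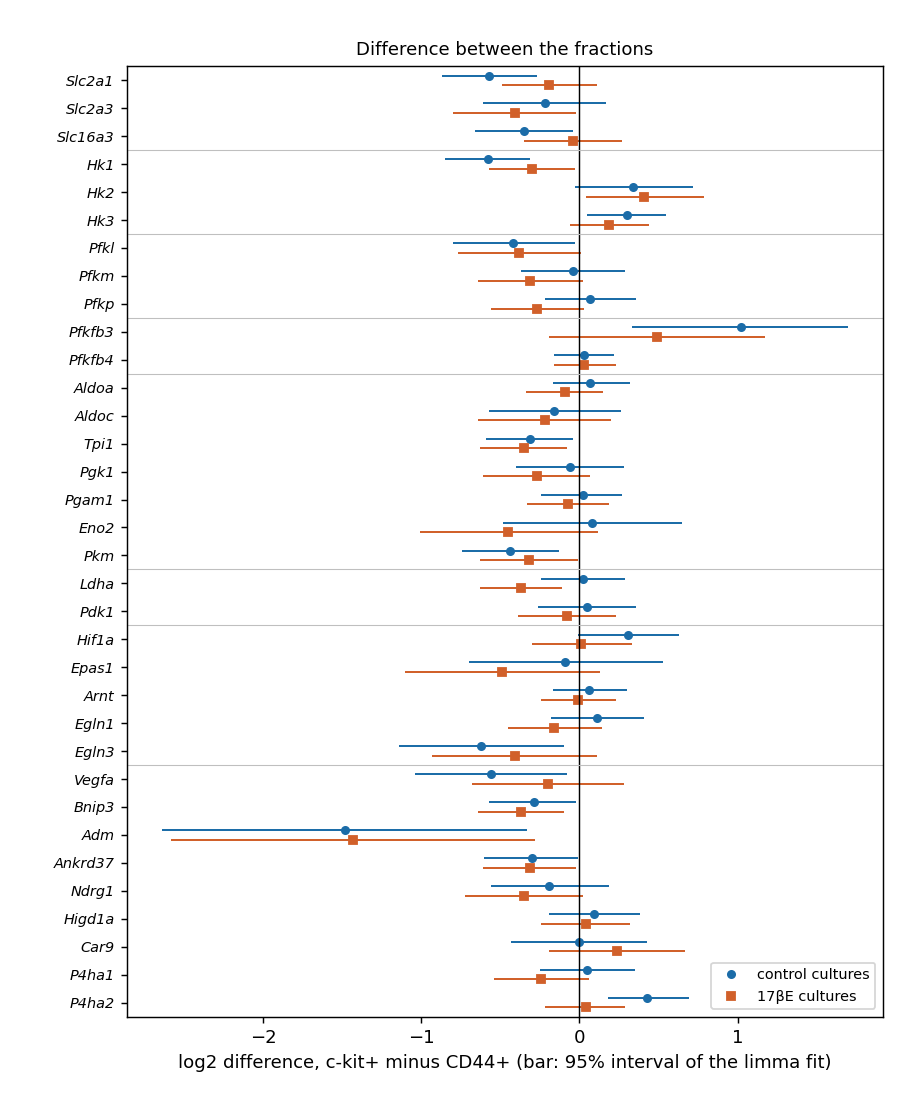
Log2 difference between the c-kit+ and CD44+ fractions for each member (points, with 95% intervals of the limma fit as bars) in control cultures (blue circles) and 17βE cultures (orange squares). Points left of 0 are lower in c-kit+ cells; Adm lies farthest left (-1.48 and -1.43) and Pfkfb3 farthest right (1.02 and 0.49).

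Among the transporters, Slc2a1 (GLUT1, the glucose transporter of most cells) read 9.69, 9.74 and 9.27 in c-kit+ control arrays and 10.1, 10.14 and 9.91 with 17βE. In CD44+ cells it read 10.11, 10.28 and 10.02 in control arrays and 10.12, 10.42 and 10.19 with 17βE. On this brightest probe set the c-kit+ control arrays were thus the low group, under all 9 other arrays. The difference with 17βE in c-kit+ cells was 0.48 (SE 0.14, adjusted p = 0.434) and that between the fractions in control cultures -0.57 (SE 0.14, adjusted p = 0.0526), neither of which passed, and both rest on the same 3 arrays. The fraction difference of Slc2a1 passed with the mean of its probe sets (-0.52, adjusted p = 0.0239), after quantile normalization (-0.71, 0.0184), with array weights (-0.60, 0.00514), with the replicate block (-0.57, 0.01) and without c-kit+ control replicate 2 (-0.66, 0.0457). It did not pass under the other settings, with adjusted p-values up to 0.197 in the 6 control arrays alone. The other 2 probe sets of Slc2a1 had -0.51 and -0.48 in the same comparison, and 0.46 and 0.17 with 17βE in c-kit+ cells. Between the fractions in 17βE cultures they had -0.35 and -0.68, against -0.19 for the brightest. With 17βE in CD44+ cells they had 0.30 and 0.37, against 0.11. Slc2a3, a glucose transporter of high affinity, ran from 7.07 to 8.16 over all arrays, and Slc16a3, the lactate exporter, from 4.42 to 5.01, near background.

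Of the hexokinases only Hk1 passed a test, in control cultures. Hk1, the form found in most tissues, read 9.03, 9.12 and 9.37 in c-kit+ control arrays against 9.58, 9.91 and 9.77 in CD44+ control arrays. With 17βE it read 9.12, 9.24 and 9.36 against 9.5, 9.46 and 9.66. All c-kit+ arrays lay below all CD44+ arrays, and the difference in 17βE cultures was -0.30 (adjusted p = 0.409). A dimmer probe set of Hk1 (mean 5.41, under the highest Y-linked gene) had -1.06 in control and -0.14 in 17βE cultures. Hk2, the inducible form known as a HIF target, read 9.31, 9.55 and 9.52 in c-kit+ control arrays and 10.01, 9.74 and 9.92 with 17βE. All 3 treated arrays were the higher ones, by 0.43 (SE 0.17, adjusted p = 0.987). In CD44+ cells, with 9.51, 9.18 and 8.66 against 9.38, 9.5 and 9.55, the groups overlapped and the difference was 0.36 (SE 0.17, adjusted p = 0.949). The difference of these effects of 17βE on Hk2 was 0.07 (95% interval -0.46 to 0.60). Between the fractions Hk2 had 0.34 in control and 0.41 in 17βE cultures (adjusted p = 0.413 and 0.422). Hk3, a hexokinase of myeloid cells, had a difference of 0.30 between the fractions in control cultures (c-kit+ higher, adjusted p = 0.258) and of 0.19 in 17βE cultures (0.716).

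At the committed step, the 3 phosphofructokinase genes Pfkl, Pfkm and Pfkp lay lower in c-kit+ than in CD44+ cells in 17βE cultures, by -0.38, -0.31 and -0.27, with no overlap of arrays in any of them and adjusted p-values of 0.53 to 0.584. In control cultures their differences were -0.42, -0.04 and 0.07. Pfkfb3, which makes the activator fructose 2,6-bisphosphate, read 8.13, 7.5 and 8.82 in c-kit+ control arrays and 7.6, 7.08 and 6.73 in CD44+ control arrays. Its level on c-kit+ control replicate 3 was the highest of all 12 arrays, and the groups overlapped (difference 1.02, SE 0.32, adjusted p = 0.141). It ran from 0.68 without c-kit+ control replicate 3 to 1.34 without replicate 2, where it passed (adjusted p = 0.0411), as it did with array weights (0.87, 0.0429). With 17βE Pfkfb3 read 8.16, 8.33 and 8.66 in c-kit+ and 7.56, 8.41 and 7.71 in CD44+ cells. The 17βE difference in CD44+ cells was 0.76 (SE 0.32, adjusted p = 0.859), with CD44+ 17βE replicate 1 below CD44+ control replicate 1. The dimmer probe set of Pfkfb3 (mean 4.55, under the highest Y-linked gene) had -0.04 there. Between the fractions in control cultures it had -0.10, opposite in sign to the brightest, and the mean of the probe sets had 0.46. Pfkfb4, a relative of Pfkfb3, stayed between 7.89 and 8.11 on every array.

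Of the 7 measured enzymes of lower glycolysis, all lay below 0 between the fractions in 17βE cultures (median -0.27) and 4 of 7 in control cultures (median -0.06). Pkm, the pyruvate kinase gene, read 12.2, 12.28 and 12.38 in c-kit+ control arrays and 12.7, 12.84 and 12.62 in CD44+ control arrays. These groups did not overlap (-0.44, SE 0.14, adjusted p = 0.165). With 17βE Pkm read 12.22, 12.59 and 12.31 against 12.75, 12.4 and 12.93, and the groups overlapped. Tpi1, the triosephosphate isomerase gene, was lower in c-kit+ cells without overlap in both cultures (-0.31 and -0.35, adjusted p = 0.294 and 0.276). Aldoc, an aldolase gene, had -0.16 and -0.22 between the fractions. Aldoa, Pgk1 and Pgam1, which encode aldolase A, phosphoglycerate kinase and phosphoglycerate mutase, had differences from -0.27 to 0.14 in the 4 comparisons of 2 groups. The 3' control probe set of Gapdh, whose enzyme acts between those of Tpi1 and Pgk1, ranged from 13.31 to 13.71 over all arrays, while its 5' probe set ranged from 7.14 to 10.61.

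Ldha, whose enzyme turns pyruvate into lactate, read 12.66, 12.6 and 12.93 in c-kit+ control arrays and 12.4, 12.64 and 12.61 with 17βE. In CD44+ cells it read 12.73, 12.83 and 12.56 in control arrays and 12.79, 13.01 and 12.96 with 17βE. The groups overlapped within each fraction, and in 17βE cultures all c-kit+ arrays lay below all CD44+ arrays (-0.37, SE 0.12, adjusted p = 0.198). Pdk1, the kinase that keeps pyruvate out of the mitochondrial cycle, was lower on all 3 c-kit+ 17βE arrays (10.69, 10.62 and 10.71) than on the control arrays (10.83, 10.98 and 10.78), by -0.19 (adjusted p = 0.999).

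None of the oxygen sensors and HIF subunits passed in any of the 5 comparisons with all arrays (limma, Egln3 alone at an unadjusted p under 0.05). Hif1a, the main HIF α subunit gene, was at a mean of 11.62 in both c-kit+ groups, and at 11.32 in CD44+ control and 11.61 in CD44+ 17βE arrays (SDs from 0.09 to 0.25, n = 3). Between the fractions in control cultures this probe set of Hif1a had 0.31, while its other 3 had -0.14, -0.09 and -0.40. The means of these 3 were 9.39, 4.17 and 7.57, with 4.17 under the highest Y-linked gene. Arnt ranged from 7.99 to 8.29 over the 12 arrays. Epas1, which encodes HIF-2α, varied within groups (SD 0.38 to 0.5), with replicate 1 the highest of its group in all 4. Egln1, the main HIF prolyl hydroxylase gene, ranged from 9.54 to 10.06. Egln3, a hydroxylase gene that HIF itself induces, was lower in c-kit+ cells by -0.62 in control cultures (adjusted p = 0.26) and by -0.41 with 17βE (adjusted p = 0.693), with c-kit+ control replicate 3 the lowest array (6.07). Egln3 passed in control cultures when c-kit+ control replicate 2 was left out.

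Among the hypoxia targets, Vegfa, the main angiogenic growth factor gene, read 6.21, 5.97 and 6.25 in c-kit+ control arrays and 6.49, 6.77 and 7.59 with 17βE. In CD44+ cells it read 6.92, 6.43 and 6.76 in control arrays and 7.16, 7.11 and 7.2 with 17βE. All treated arrays lay above all control arrays within each fraction, by 0.81 (SE 0.22, 1.75-fold, adjusted p = 0.386) and by 0.45 (SE 0.22, 1.37-fold, adjusted p = 0.949). Neither difference passed, and the first ran from 0.49 to 1.04 with single arrays left out. A dimmer probe set of Vegfa had -0.03 and -0.05. Its mean of 4.85 lay under the highest Y-linked gene, so it could show little change.

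Adm read 7.9, 7.32 and 9.99 in c-kit+ control arrays and 8.61, 9.14 and 9.71 in c-kit+ 17βE arrays. It read 10.59, 9.41 and 9.65 in CD44+ control arrays and 10.74, 10.43 and 10.58 with 17βE. In control cultures the groups overlapped, since c-kit+ replicate 3 lay among the CD44+ arrays, and in 17βE cultures all c-kit+ arrays were the lower ones. The difference between the fractions was -1.48 (SE 0.53, adjusted p = 0.215) in control and -1.43 (SE 0.53, adjusted p = 0.309) in 17βE cultures. Without c-kit+ control replicate 3 it was -2.28 in control cultures and passed (adjusted p = 0.00214), and without c-kit+ control replicate 2 it was -0.94 (0.373). It also passed in control cultures with the mean of its probe sets (-1.25, adjusted p = 0.0406) and array weights (-1.59, 0.0128), and was -0.93 with the Gapdh covariate (0.737). In 17βE cultures -1.43 passed when c-kit+ control replicate 3 was left out of the shared fit (adjusted p = 0.0153). It also passed there on the arrays of the comparison alone. A dimmer probe set of Adm (mean 4.67, under the highest Y-linked gene) had -1.01 and -0.72. Bnip3, a mitophagy receptor gene, read 10.58, 10.87 and 10.61 in c-kit+ control and 10.93, 11.14 and 10.87 in CD44+ control arrays, where the groups just touched. With 17βE it read 10.48, 10.65 and 10.76 against 10.84, 11.00 and 11.16, without overlap (-0.37, SE 0.13, adjusted p = 0.235).

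P4ha2, which encodes a subunit of the collagen prolyl 4-hydroxylase, read 7.83, 7.71 and 7.93 in c-kit+ control arrays against 7.56, 7.31 and 7.3 in CD44+ control arrays, with all c-kit+ arrays the higher ones (0.43, SE 0.12, adjusted p = 0.0837). With 17βE the fractions overlapped, at 7.46, 7.75 and 7.49 against 7.61, 7.57 and 7.41 (0.04, adjusted p = 0.977). The difference of the 17βE effects on P4ha2 was -0.39 and did not pass. P4ha1, which encodes an alternative form of the same subunit, had 0.05 and -0.24 between the fractions. Ankrd37, Ndrg1 and Higd1a, known as hypoxia-induced genes, had differences from -0.23 to 0.30 with 17βE. Car9, a carbonic anhydrase and HIF marker gene, was lower on all CD44+ 17βE arrays (7.21, 7.15 and 7.12) than on the control arrays (7.36, 7.49 and 7.45), by -0.27 (adjusted p = 0.949).

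**Figure D4:**
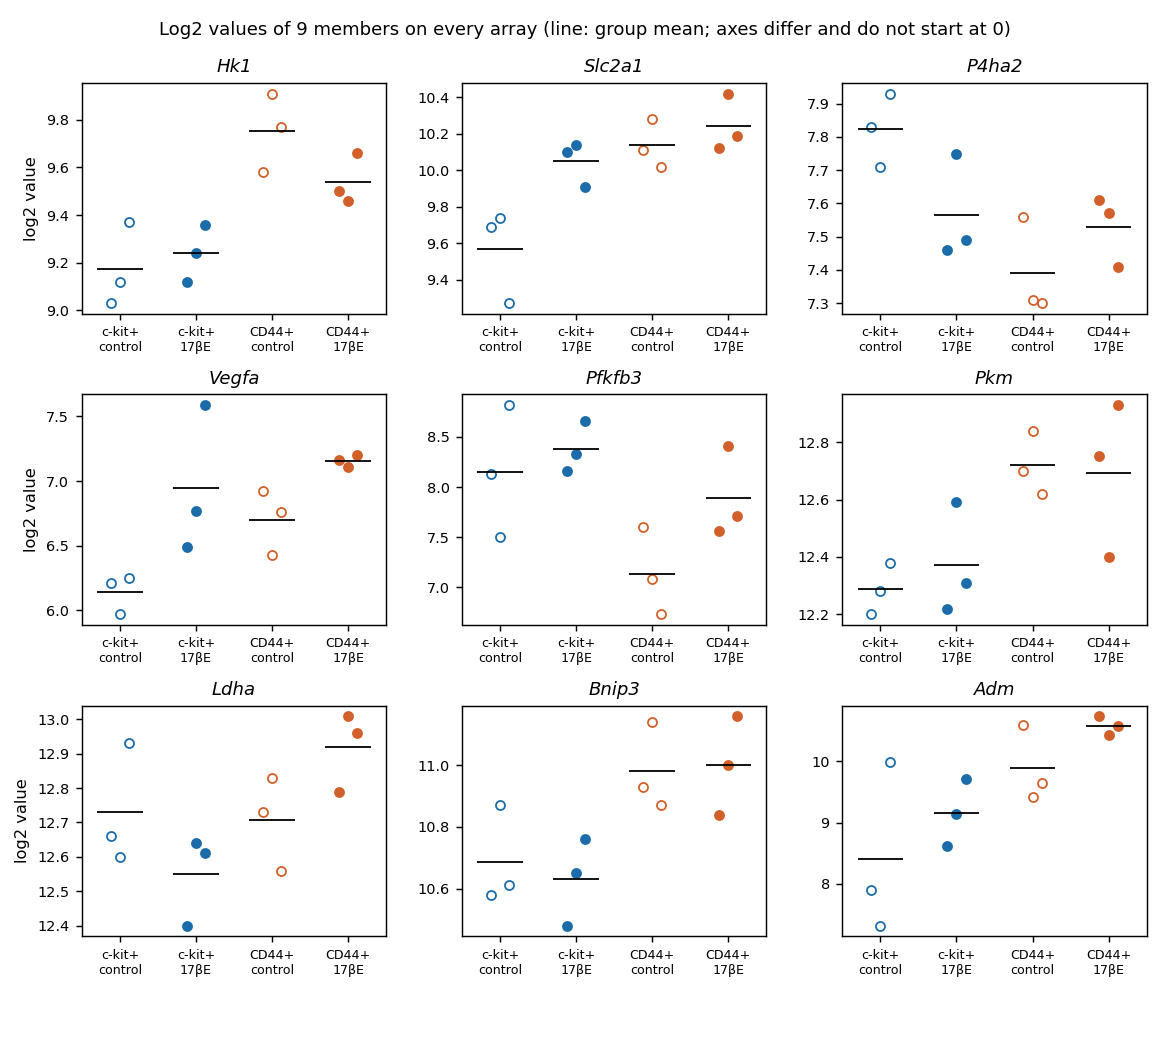
Log2 values of 9 members on every array (points; open for control, filled for 17βE, blue for c-kit+ and orange for CD44+) with the mean of each group of 3 as a line, each panel on its own axis. Hk1 is lower on all c-kit+ than on all CD44+ arrays, Slc2a1 is lowest in the c-kit+ control group, and the high open point of Adm among c-kit+ arrays (9.99) is control replicate 3.

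Other genes of these pathways were read from a pair of further lists. Of 35 other genes of glucose metabolism measured (39 named), none passed by limma with 17βE in either fraction or for the difference of effects (2, 3 and 0 at an unadjusted p under 0.05, or 5.71%, 8.57% and 0.0%, against 4.47%, 5.38% and 1.63% of all genes), and 1 was lower in c-kit+ than in CD44+ cells in both cultures (2.3% and 2.65% of all genes passed). This was Pdk4, like Pdk1 a brake on pyruvate oxidation, with 3.66, 4.30 and 3.99 in c-kit+ control against 6.42, 5.14 and 6.43 in CD44+ control arrays. Its differences were -2.01 (SE 0.36, adjusted p = 0.00939) and -2.06 (SE 0.36, adjusted p = 0.00635), and by the rule above Pdk4 is near background in all 4 groups, so the size of these differences is uncertain. Sry alone sets that limit. The CD44+ arrays of Pdk4 (5.14 to 6.93) lay above the other Y-linked means (up to 4.30), and its c-kit+ arrays (3.66 to 4.35) lay near them. The difference in control cultures was not called without c-kit+ control replicate 1 (adjusted p = 0.0517), CD44+ control replicate 3 (0.0637) or with the Gapdh covariate (0.0737).

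Of 28 other hypoxia genes measured (32 named), again none passed by limma with 17βE or for the difference of effects, and between the fractions 2 were lower in c-kit+ cells in control and 3 in 17βE cultures, where 2.3% and 2.65% of all genes passed. At an unadjusted p under 0.05 stood 7 higher and 1 lower of these 28 with 17βE in CD44+ cells (28.6%, against 5.38% of all genes), 2 higher and 1 lower in c-kit+ cells (10.7%, against 4.47%), and 1 for the difference of effects (3.57%, against 1.63%). Between the fractions the unadjusted shares were 21.4% in control and 35.7% in 17βE cultures (13.6% and 9.77% of all genes). Lox, which cross-links collagen, had -2.71 in control (SE 0.31, 6.55-fold, adjusted p = 0.000659) and -2.55 in 17βE cultures (SE 0.31, adjusted p = 0.000514). Plod2, a collagen lysyl hydroxylase gene, had -1.33 (adjusted p = 0.035) and -2.28 (adjusted p = 0.000929), and Ddit4, a stress-induced inhibitor of mTORC1, -2.38 in 17βE cultures (adjusted p = 0.0363). Plod2 lay under the highest Y-linked gene on all c-kit+ arrays and in the mean of the CD44+ control group, so the size of its differences is uncertain. Lox and Plod2 act on collagen and are also products of mesenchymal cells, whose markers moved in the same direction, and the part of these cells in the result was not tested. The control value of Plod2 lost its call without c-kit+ control replicate 1 or 2 or CD44+ control replicate 1 or 3 (adjusted p from 0.0762 to 0.135) and in the 6 control arrays alone (0.154). Ddit4 lost its call without c-kit+ 17βE replicate 2 or 3 or CD44+ 17βE replicate 1 or 3 (0.104 to 0.189). The medians of both lists lay between -0.02 and 0.03 in the comparisons of the fractions. With 17βE the median of the other hypoxia genes was 0.07 in c-kit+ and 0.16 in CD44+ cells (22 of 28 above 0). It was -0.14 for the difference of effects. For the other genes of glucose metabolism these medians were 0.00, 0.02 and -0.06, and over all genes 0.016, 0.01 and 0.007.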

How the data were processed

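The authors deposited log2 values from RMA, per the submitters' processing notes, with no version given in the sources used. They ran from 2.47 to 14.81 with array medians of 4.75 to 4.84. Of 45101 probe sets 34945 named 1 gene, giving 18193 genes, each read from its brightest probe set; no value was filtered or rescaled. The test was limma 3.58.1 (R 4.3.3): 1 mean per group over 12 arrays, empirical Bayes, Benjamini-Hochberg adjustment over all genes. Intervals are 95% and unadjusted. The script was tested on simulated data. Python 3.11.15, pandas 2.3.3 and matplotlib 3.10.9 made tables and figures. The number of arrays limits the precision.

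The members and lists were chosen with earlier results of these data known. All members are described; array values are given in full for called members and the 8 others of smallest p, and of the other lists the genes that passed are named. Other array values given were chosen after they were seen. Equal replicate numbers were taken to pair arrays where all 3 correlations of deviations from group means exceeded 0.1: CD44+ control with 17βE (0.303, 0.368, 0.322) and the fractions in 17βE cultures (0.447, 0.192, 0.312), but not c-kit+ control with 17βE (0.345, 0.092, 0.253) or the fractions in control cultures (0.175, 0.122, -0.208). Alternatives are named in the closing section.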

Additional observations from a re-analysis of the deposited data

How the results depend on the processing

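Values were computed again with each gene's probe sets averaged, with the brighter genes alone (median level or above), after quantile normalization or median centring, with array weights, with a robust trend, with the replicate block, on only the arrays compared, and without each array. The Gapdh covariate and c-kit+ control array 3 left out of the shared fit were added after the data were seen. The averages of probe sets took in those near background. With array weights the genes called over all genes were 55 with 17βE in c-kit+ cells (33 as reported), 1405 in CD44+ cells (53), 1058 between the fractions in control (418) and 779 in 17βE cultures (483). The replicate block gave 62, 101 and 693 in the first 3 of these and changed no call of a member beyond adding Slc2a1 in control cultures, where 2 members passed. The arrays of the comparison alone gave 2 genes for c-kit+ 17βE and 196 for the fractions in control, with 0 members there and 1 (Adm) in 17βE cultures. Brighter genes alone gave 250 in 17βE cultures, the Gapdh covariate 254 in control cultures with 0 members, and leaving c-kit+ control array 3 out of the shared fit 97 for CD44+ 17βE and 1 member (Adm) between the fractions with 17βE. Members called between the fractions in control were 2 with probe set means (Slc2a1 and Adm) or quantile normalization (Hk1 and Slc2a1) and 10 with array weights; array weights also gave 5 for CD44+ 17βE and 1 in 17βE cultures. The member median moved by over its spread between arrays (0.066) with quantile normalization in CD44+ 17βE (-0.042), the difference of effects (0.028) and the control fractions (-0.134), with array weights in the last 2 (-0.014 and -0.124), with the Gapdh covariate in the control fractions (-0.116) and with probe set means in the 17βE fractions (-0.131). The causes were not tested. The Hk1 call was also lost with probe set means (-0.82, adjusted p = 0.062), that of Plod2 in control cultures with median centring (0.0577), the robust trend (0.0631), array weights (0.133) and the Gapdh covariate (0.0898), and that of Ddit4 with the first 2 of these (0.0551 and 0.124) and the covariate (0.0653).

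With single arrays left out, all genes called ran from 10 to 45 for c-kit+ 17βE, 22 to 76 for CD44+ 17βE, 221 to 456 between the fractions in control and 269 to 436 in 17βE cultures, and stayed at 0 for the difference of effects. The count moved by over 1.5 times without c-kit+ 17βE replicate 2 (10) or 3 (21) for c-kit+ 17βE, without CD44+ control replicate 2 (29) or 3 (30) or CD44+ 17βE replicate 2 (29) or 3 (22) for CD44+ 17βE, without c-kit+ control replicate 1 (238) or CD44+ control replicate 3 (221) between the fractions in control, and without CD44+ 17βE replicate 1 (273) or c-kit+ 17βE replicate 2 (269) in 17βE cultures. Members called ran from 0 to 3 between the fractions in control (3 without c-kit+ control replicate 2: Slc2a1, Pfkfb3 and Egln3) and stayed at 0 elsewhere. Member medians ran from -0.009 to 0.038, 0.045 to 0.14, -0.087 to 0.019 and -0.29 to -0.196 in the same order, and from -0.149 to -0.024 for the difference of effects. Under a single setting at most 11 of the 34 members turned their sign in a comparison, and none whose difference was over 0.31 in size did.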
